A study of Homo sapiens with 15 samples.

Results

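The loops described here are the H3K27ac chromatin loops of LNCaP cells, compared between 16 h of dihydrotestosterone (DHT) and vehicle. They are the anchor pairs listed first in each deposited table, before the chromosomes begin again, each taken once, which gave 296326 of the 505995 different anchor pairs in the series. The H3K4me3 loop set also holds 68822 of them. The study followed chromatin looping over a time course of androgen treatment with HiChIP, which ligates neighbouring DNA ends in crosslinked chromatin, enriches for 1 histone mark with an antibody and sequences both ends of each ligated fragment as a read pair. Labelled samples comprised 2 replicates of H3K27ac and 1 of H3K4me3 at each of 5 time points, but each loop has a single deposited value for a mark at a time point. Whether both H3K27ac replicates entered that value is not given in the sources used here. The difference between 16 h and 0 m therefore has no replicate check.

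The 0 m group was given ethanol vehicle and the 16 h group 10 nM DHT for 16 h. The groups at 30 m, 4 h and 72 h had 10 nM DHT for those times and are used here beside the contrast. All groups were LNCaP, 1 established line from a lymph node metastasis of prostate cancer, grown without androgen in phenol red-free medium with 10% charcoal-stripped serum for 3 days before treatment. A single line from a metastasis is limited as a model of normal prostate. Promoters of the luminal markers KRT8, KRT18, KLK3, FOXA1 and HOXB13 all had H3K27ac loops. GATA3 and KRT19, which are in the luminal list used below, had none. Of the 4 basal markers only KRT15 had loops, with 2 read pairs at 0 m and 7 at 16 h, and KRT5, KRT14 and TP63 had none. Neuroendocrine markers had loops at 1 of 6 promoters (ENO2), stromal markers at 4 of 6 and immune markers at 2 of 5.

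DHT is a potent androgen that changes transcription in prostate cells, and many of the regulatory elements of these cells are bound by the forkhead factor FOXA1. Acetylation of histone H3 at lysine 27 marks active enhancers and promoters, and trimethylation at lysine 4 marks promoters. A loop in these assays is a pair of places that were ligated more often than their distance predicts, and its contact also depends on how much of the mark the 2 places carry.

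Contact here is the deposited value of a loop, scaled by the authors among the time points of a mark. In each table every value (100%) was a whole multiple of the smallest non-zero value, to within 0.001 of it, which is that of 1 read pair, 0.294 at 0 m and 0.212 at 16 h. Over the H3K27ac loops there were 1989545 read pairs at 0 m and 3367952 at 16 h, with a median of 4 per loop in both libraries. At 0 m 5.81% of the loops had no read pair, and at 16 h 4.72%. Where 5 contact values follow each other they run from 0 m through 30 m, 4 h and 16 h to 72 h. Intervals given for log2 changes are exact 95% intervals of the ratio of read pairs and cover counting error only.

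Some of the distal elements that were targeted with CRISPR guides by the study have a loop to the promoter of their gene, so the elements can be placed on the contact maps. All 69 guide sequences matched the GRCh37 (hg19) chromosome of their gene, the only one searched for each. An ABCC4 guide matched 6 places on chromosome 13 and was not used, which left 1 guide to place its element. For 5 distinct element and promoter loops, 1 guide each is shown, because these short sequences fix where the element lies. Elements carry the name of the gene and a number. ABCC4 element 2 and element 3 fall in the same 5 kb bin, as do FKBP5 element 1 and element 2. Capitals mark the PAM, the 3 genomic bases after the guide that Cas9 needs.
KLK3 element 2, chr19:51354072-51354091, plus strand: gattgaaaacagacctactcTGG
UAP1 element 2, chr1:162537557-162537576, minus strand: gtacacaatcaagtactgggTGG
FKBP5 element 1, chr6:35690156-35690175, plus strand: cttgctgagggctgtgaatgTGG
ABCC4 element 1, chr13:95898660-95898679, minus strand: ggctggcggtggtgccccagAGG
ABCC4 element 2, chr13:95920404-95920423, minus strand: gcgagcacagggttgggggtAGG

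Among the loops with the largest rises at 16 h were single loci with more than 10 times the contact of vehicle-treated cells. These included loci near COX10, within CHST15, at SLC25A29 and at IFIT3. A loop was tested when it had at least 20 read pairs at 0 m and 16 h together, and called when its contact differed by at least 2-fold after 0.5 read pairs were added to both. Of 57162 loops tested, 10333 were called higher (18.1%) and 3200 lower (5.6%). Over all loops together contact was 0.29 higher on the log2 scale (interval 0.29 to 0.29), from a mean of 1.97 to 2.41. With both libraries set to the same total every log2 change is lower by 0.29, and then 5834 loops were called higher (10.2%) and 6209 lower (10.9%). So which direction has more calls depends on the scaling, and single loops are read against this common shift.

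The locus with the largest lower bound of change lies between genes on chromosome 17, in a 5 kb loop from chr17:13862001-13863000 to chr17:13867001-13868000. The nearest protein-coding gene is COX10, an enzyme of haem A synthesis, with its start over 100 kb away. Its contact was 5.00, 8.82, 6.41, 67.3 and 54.2 in time order. It was low at the first 3 time points and high at 16 h and 72 h, and the change at 16 h was 3.75 on the log2 scale (interval 3.05 to 4.55), from 17 to 317 read pairs. An intronic 5 kb loop of CHST15, a sulfotransferase that modifies chondroitin sulfate, had a contact of 5.29, 23.6, 7.69, 61.6 and 51.6 from 0 m to 72 h. Its change was 3.54 (2.85 to 4.32), and here the 30 m value also stood well above that at 4 h.

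SLC25A29, a mitochondrial carrier of basic amino acids, had a loop from its promoter to its intron with a contact of 8.23, 21.6, 15.4, 86.2 and 52.4, highest at 16 h (change at 16 h 3.39, interval 2.84 to 4.00). In the intron of ZC3HAV1, which encodes an antiviral zinc finger protein, the loop with the most read pairs among those named had 127 at 0 m and 1339 at 16 h, a change of 2.93 (2.67 to 3.20). Its contact of 37.3 at 0 m was followed by 91.6, 40.8, 284 and 301. The 0 m and 4 h values lay close together, and those at 16 h and 72 h were the high ones.

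Other loci among the 10 named rises were an exonic loop of the endosomal protein gene DNAJC13 (3.60, interval 2.69 to 4.69), a loop between genes near CLPB (3.88, 2.71 to 5.35) and an intronic loop of SLC22A23 (3.02, 2.55 to 3.53). A loop at the shared promoter of PLAGL2 and POFUT1 had 126 read pairs at 0 m and 1170 at 16 h (2.75, 2.48 to 3.02). Of these 10 loops 9 were 5 kb long. The exception joined the promoter of SMPD1, which encodes acid sphingomyelinase, to that of TRIM3 over 85 kb. It had 2 read pairs at 0 m and 59 at 16 h (4.41, 2.50 to 7.49), and its contact was 0.588, 5.94, 3.63, 12.5 and 11.6. In the H3K4me3 libraries all 10 of these loops had an interval of the change that includes 0. Several had few read pairs there, as near COX10 with 3 at 0 m and 7 at 16 h (interval -1.45 to 3.26). Intervals as wide as this do not show that contact was unchanged. IFIT3, which belongs to the interferon-induced family of antiviral proteins, came closest to the H3K27ac pattern there, from 3 to 14 read pairs.

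Losses were smaller and lay mostly far from promoters. The largest was a 40 kb loop between genes on chromosome 10, from chr10:113682001-113683000 to chr10:113722001-113723000, whose nearest gene is GPAM, an acyltransferase of glycerolipid synthesis. Its contact was 14.4, 4.32, 5.34, 1.70 and 1.58 over the time course, so that it was high in vehicle-treated cells alone. It had 49 read pairs at 0 m and 8 at 16 h, a log2 change of -3.08 (interval -4.37 to -1.99). A 35 kb loop between PLA2G2C and VWA5B1 on chromosome 1 changed by -2.54 (-3.70 to -1.52). A 15 kb loop that joined POU2AF2 to POU2AF3, which encode partners of the tuft cell factor POU2F3, had a contact of 16.5, 3.78, 7.26, 3.61 and 2.63 in time order. Its change was -2.19 (-3.07 to -1.38). Loops near DUSP5, a phosphatase of ERK, and within SPON2, which encodes a secreted matrix protein, both went from 41 to 14 read pairs (-2.02, -3.01 to -1.11). At DUSP5 the contact was 12.05, 8.28, 8.12, 2.97 and 8.42, lowest at 16 h. At SPON2 it was 12.05, 6.12, 12.6, 2.97 and 2.89, high at 0 m and 4 h.

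The change at 16 h was also taken by class of contact and of length. Loops were sorted by their mean contact at 30 m, 4 h and 72 h. These libraries are DHT-treated as well and move with the 16 h values, so the gradient over the classes of contact is partly fixed by the sorting and is a description only. The log2 change was -0.28 in loops with a contact of at most 1, 0.26 in those of 4 to 8 and 1.09 in the 1257 loops over 32. In the H3K4me3 libraries the same classes changed by 0.16, 0.11 and 0.21. Loops of 5 kb changed by 0.72 and those of 10 kb by 0.19, while the sum over the 254135 loops of 20 kb and longer changed by 0.00. That sum holds changes in both directions, with 4423 of these loops called higher and 1701 lower and a median of 0.22 over the tested ones. Within a class of contact the order of the lengths varied. From 2 to 4 the change was -0.03 in 5 kb loops and 0.14 in those from 20 kb, and from 4 to 8 it was 0.28 and 0.30. From 16 to 32 it was 0.91 and 0.52, and over 32 it was 1.14 in the 1141 loops of 5 kb and 0.74 in the 26 from 20 kb. The plot of change by contact and by length shows both gradients.

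**Figure D1:**
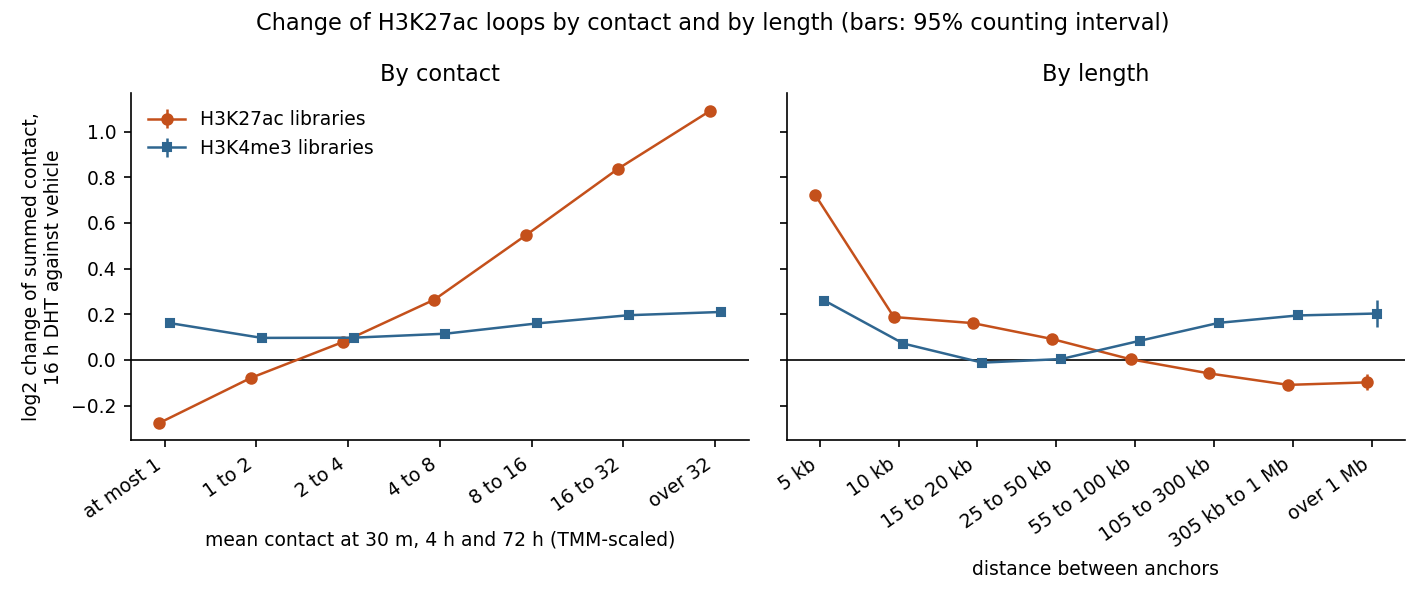
Log2 change of summed contact of H3K27ac loops, 16 h DHT against vehicle, by class of mean contact at 30 m, 4 h and 72 h (left, TMM-scaled units) and by distance between anchors (right), in the H3K27ac (circles) and H3K4me3 (squares) libraries. Bars are 95% counting intervals, mostly smaller than the points, and H3K27ac runs from -0.28 in the weakest to 1.09 in the strongest class.

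Promoters took part more in gains than in losses. An anchor was assigned to a promoter when it overlapped the 2.5 kb on either side of a protein-coding gene's start. Of the loops called higher 42.5% had a promoter anchor (exact binomial interval 41.6% to 43.5%), of those called lower 27.2% (25.7% to 28.8%) and of all tested loops 39.8%. Loops between promoters changed by 0.47, those from a promoter to a distal anchor by 0.36 and those between distal anchors by 0.23. With loops of at least 20 kb the summed values were 0.34, 0.13 and -0.14. In the last of these classes the negative value is that of the sum over all its loops. Its tested loops had a median of 0.09, with 1821 called higher and 1186 lower. Which loops account for the negative sum was not tested. Loops called higher were more often 5 kb long (45.4%) than tested loops (34.5%), and those called lower less often (28.6%). No chromosome stood on the other side of 0, with changes from 0.11 on chromosome 21 to 0.38 on chromosome 19, but with equal totals 13 of 23 lay below 0.

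The values at 30 m, 4 h and 72 h were not used in the calls, but those at 0 m were. How far these libraries lie from vehicle is therefore partly fixed by the selection and is a description only. Loops called higher had a mean contact of 6.48, 10.4, 8.22, 18.1 and 14.6 from 0 m to 72 h. For loops called lower it was 5.91, 3.49, 4.80, 2.27 and 2.91. Tested loops that were not called had 6.09 at 0 m, close to both groups. In these means the 4 h library lay nearest to vehicle in both groups, and 30 m lay further from vehicle than 4 h. What distance the selection alone would give was not tested. In the H3K4me3 libraries the loops called higher had a mean of 5.79 at 0 m and 6.72 at 16 h, and those called lower 2.93 and 3.07.

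Promoters were ranked by the change of their summed contact, at the interval bound nearest to 0. By that bound the largest rises were at genes of varied function, among them LGALS3, HNF4G, PLAGL2 and several known interferon-induced genes. The largest falls by the same bound were at TRPM2, OR51D1 and MANEA. Of 20136 protein-coding genes 14093 had an H3K27ac loop at the promoter and 9854 had at least 50 read pairs at 0 m and 16 h together. Of these, 737 were called higher (7.48%) and 118 lower (1.2%) at a change of at least 2-fold. The median log2 change was 0.27, with quartiles of -0.08 and 0.61. On the scale of equal totals 274 were called higher (2.78%) and 377 lower (3.83%). Intervals lay above 0 at 3862 promoters, below 0 at 739 and included 0 at 5253. With equal totals 2057 lay above 0 and 1959 below.

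LGALS3, which encodes the galactoside-binding lectin galectin-3, had a summed contact of 8.82, 22.1, 16.5, 60.3 and 46.8. It was highest at 16 h and lowest in vehicle, and the change at 16 h was 2.77 (2.23 to 3.37), from 30 to 284 read pairs in 2 loops. Nearly all of it came from the 5 kb loop between the promoter and an LGALS3 intron, with 25 and 276 read pairs. HNF4G, an orphan nuclear receptor, had a contact of 3.53, 11.7, 7.48, 29.5 and 21.6 over the time course (3.07, 2.21 to 4.05). The zinc finger factor gene PLAGL2, whose promoter shares most of its read pairs with that of POFUT1, had 54.4, 122, 49.1, 291 and 199. The change of 2.42 (2.20 to 2.65) was also seen in its longer loops, at 1.45 (0.91 to 2.02) over at least 20 kb, with a 45 kb loop to a place between genes rising from 20 to 88 read pairs.

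PRR15, a proline-rich protein gene, had only 3 read pairs at 0 m and 54 at 16 h, a change of 3.70 (2.08 to 6.02). Unlike most of the named rises it rested on long loops, with 2 and 50 read pairs over at least 20 kb, the strongest reaching 115 kb into an intron of CHN2. Contact at this promoter was 0.882, 3.42, 2.14, 11.5 and 10.3 in time order. The last 2 time points were the high ones.

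Promoters of the antiviral genes IFIT3 and OASL and of the exonuclease gene ISG20 are known to respond to interferon. IFIT3 had a contact of 6.46, 13.3, 7.05, 44.2 and 55 from 0 m to 72 h (change at 16 h 2.77, interval 2.14 to 3.48). OASL had 4.41, 11.9, 5.13, 31.2 and 41.3 (2.82, 2.06 to 3.70). ISG20 had 12.3, 19.4, 15.8, 55.8 and 53.7 (2.18, 1.70 to 2.68). In all 3 the values at 16 h and 72 h were high and the others low, and in IFIT3 and OASL the 72 h value was above that at 16 h. OASL and ISG20 each have a single loop, 5 kb long.

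Further named rises were at CDC42EP5, an effector of the GTPase CDC42 (2.68, 2.19 to 3.22), and CTSD, which encodes the lysosomal protease cathepsin D (2.42, 1.91 to 2.97). SLC25A29 followed with 2.20 (1.87 to 2.55), then CAPNS1, the small subunit of calpains (2.05, 1.87 to 2.24), and BAZ2A, a subunit of a nucleolar remodelling complex (2.001, 1.76 to 2.25). CAPNS1 rested on the most read pairs of the 12, 274 at 0 m and 1572 at 16 h, in 24 loops. Its contact was 80.5, 170, 87.8, 334 and 269. In loops of at least 20 kb the changes were smaller, 0.93 (0.61 to 1.26) at CAPNS1, 0.86 (0.41 to 1.34) at BAZ2A and 0.78 (0.32 to 1.25) at SLC25A29.

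**Figure D2:**
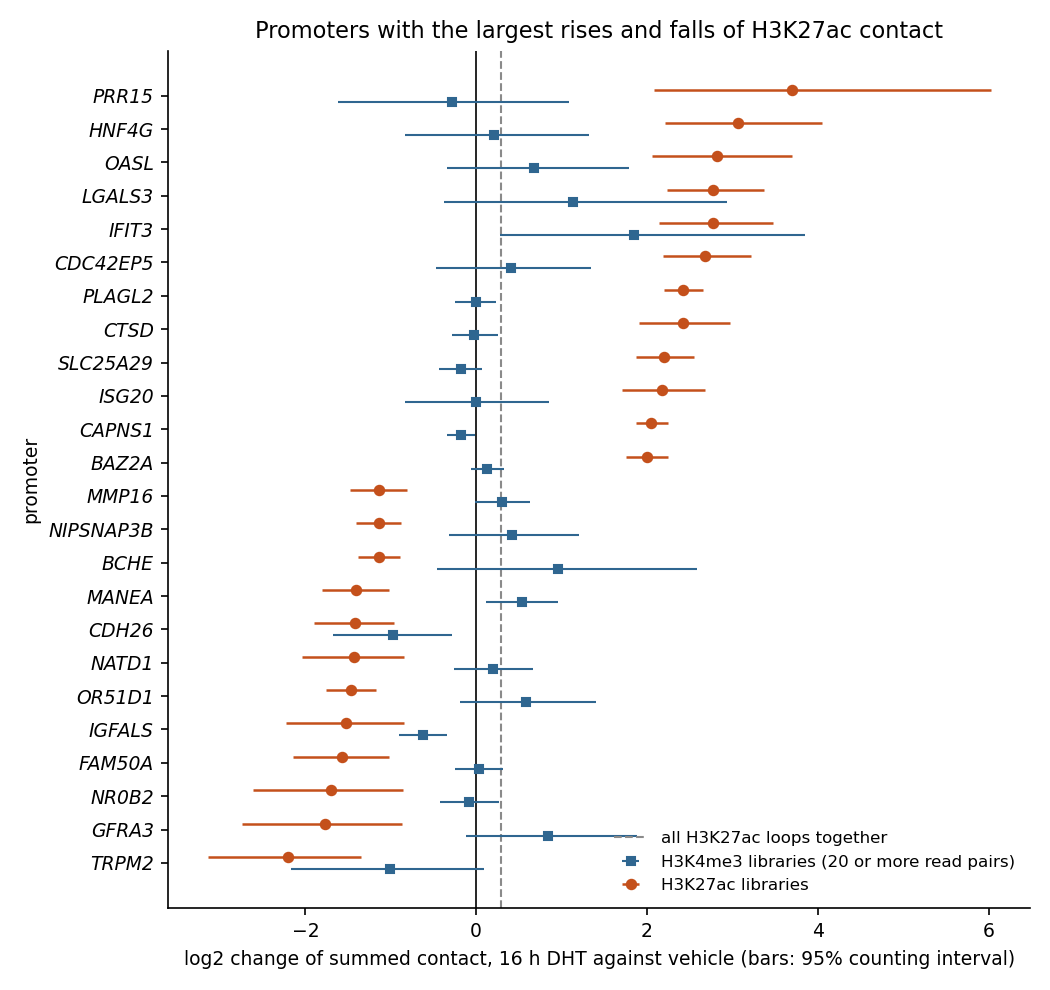
Log2 change of summed contact of the 12 promoters with the largest rises and the 12 with the largest falls of H3K27ac contact, 16 h DHT against vehicle, in the H3K27ac libraries (circles) and the H3K4me3 libraries (squares, from 20 read pairs). Bars are 95% counting intervals and the dashed line is the change of all H3K27ac loops together, 0.29. The H3K27ac values run from 3.70 at PRR15 to -2.21 at TRPM2.

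Falls at promoters were smaller. TRPM2, which encodes a calcium-permeable channel, had a contact of 14.7, 8.64, 14.1, 3.18 and 3.42 over the time course, high at 0 m and 4 h. Its change was -2.21 (-3.15 to -1.35), from 50 to 15 read pairs. At OR51D1, an olfactory receptor gene, 20 loops summed to 84.9, 30.9, 78.4, 30.8 and 29.5 in time order (-1.46, -1.76 to -1.17). One of its loops reaches the promoter of the neighbouring receptor gene OR51E1, and another an intron of MMP26 at 90 kb. MANEA, which encodes a Golgi mannosidase, had 47.9, 21.2, 33.3, 18.0 and 22.6 in 27 loops (-1.41, -1.80 to -1.02).

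BCHE encodes butyrylcholinesterase and is the one named fall that was also in a list of androgen-repressed genes. Its 48 loops summed to 104.9, 23.8, 82.7, 47.6 and 36.6 from 0 m to 72 h. The lowest value was that at 30 m, and the change at 16 h was -1.14 (-1.39 to -0.90), or -1.21 (-1.47 to -0.95) in loops of at least 20 kb. NIPSNAP3B (-1.14, -1.40 to -0.88) and the metalloproteinase gene MMP16 (-1.14, -1.47 to -0.81) likewise rested on many loops, 43 and 51. CDH26, a cadherin gene, changed by -1.42 (-1.89 to -0.96) and FAM50A by -1.57 (-2.14 to -1.02). GFRA3, the receptor of artemin, changed by -1.77 (-2.74 to -0.87) and NR0B2, an orphan nuclear receptor that represses other receptors, by -1.70 (-2.62 to -0.85), both with under 60 read pairs at 0 m and 16 h together. NATD1 (-1.43, -2.03 to -0.85) and IGFALS, which stabilises IGF complexes in blood (-1.52, -2.23 to -0.85), complete the 12.

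The share of longer loops in these calls can be given as a description, since their read pairs are part of the sums that were called. Of the promoters called higher, 594 had at least 20 read pairs in loops of at least 20 kb, and in those loops 238 were also at 1 or above and 565 above 0. Of the promoters called lower, 100 could be compared, of which 72 were at -1 or below and all 100 below 0.

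**Figure D3:**
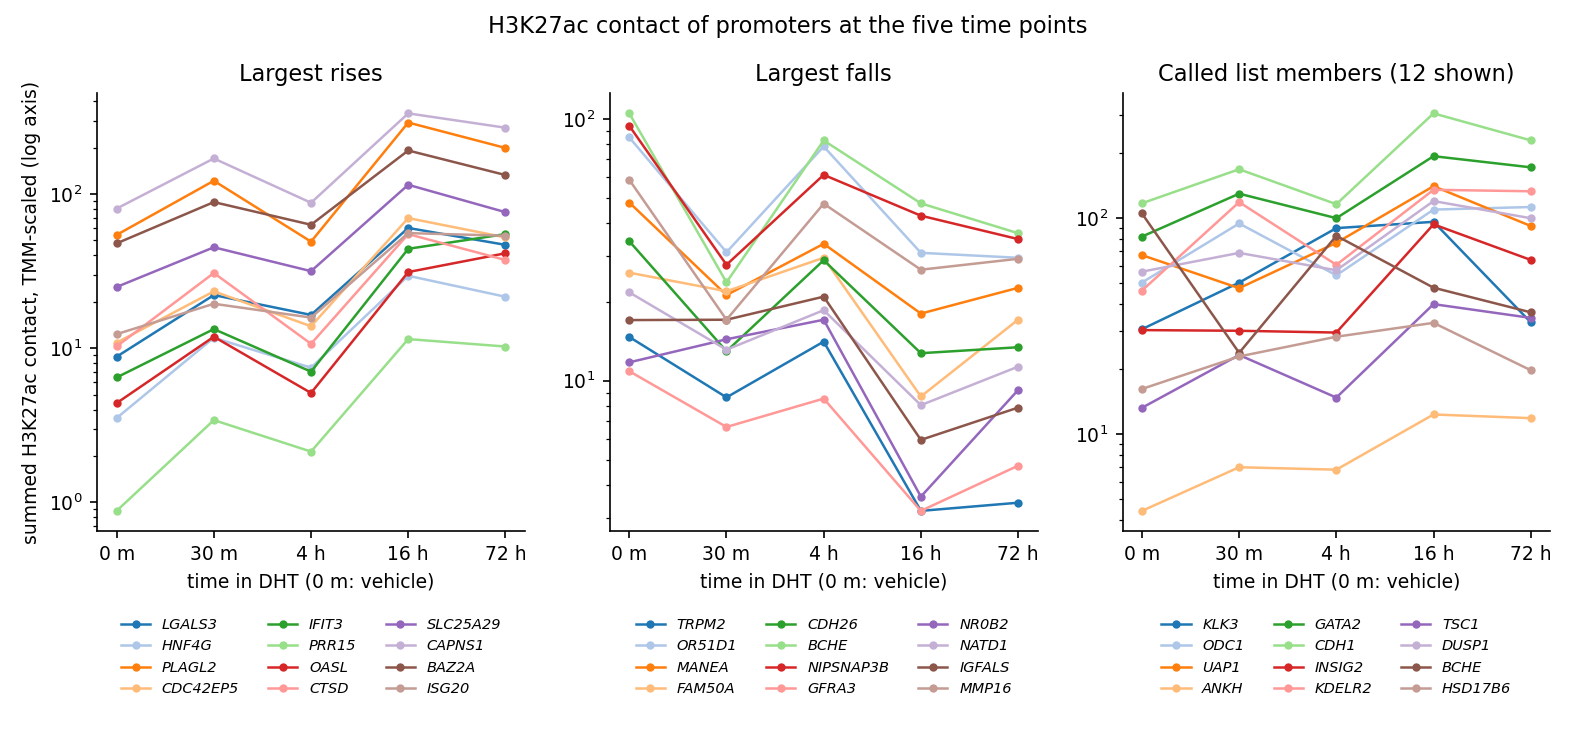
Summed H3K27ac contact (TMM-scaled, log axis) at the 5 time points for the 12 promoters with the largest rises (left), the 12 with the largest falls (middle) and 12 of the called members of the gene lists (right). Each line is 1 promoter. Rises stand highest at 16 h or 72 h, and many falls have their high values at 0 m and 4 h, as OR51D1 with 84.9 and 78.4.

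Androgen-induced genes were looked at as a list of 33, of which 27 had loops and 23 could be tested. Contact was called higher at 4 of them and lower at 0, against 7.48% of all promoters called higher. The median change was 0.58 beside 0.27 over all tested promoters, and 0.28 beside -0.02 on the scale of equal totals. Intervals lay above 0 at 17 and below it at 0, and on the scale of equal totals at 10 and 2, with 3 still called. Over all 9854 promoters they lay above 0 at 3862 and below it at 739. With equal totals these counts were 2057 and 1959, and 2.78% of all promoters were called higher. The H3K4me3 median over 24 of these promoters was 0.57, beside 0.11 over all promoters. KLK3, which encodes prostate-specific antigen, had a contact of 30.6, 50.2, 89.7, 96.0 and 32.9. It was high at 4 h and 16 h and back near vehicle at 72 h, unlike the promoters with the largest rises. The change at 16 h was 1.65 (1.34 to 1.97), from 104 to 452 read pairs.

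ANKH, a membrane protein needed for pyrophosphate release, changed by 1.48 (0.64 to 2.41) on 15 and 58 read pairs. UAP1, an enzyme that makes UDP-N-acetylglucosamine, had 67.3, 47.3, 76.7, 140 and 91.8 in time order. Its change of 1.06 (0.84 to 1.28) came from short loops, since in loops of at least 20 kb it was -0.03, and with equal totals it was 0.77 and not called.

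Below the 2-fold threshold, ACSL3, an acyl-CoA synthetase, had a change of 0.99 (0.70 to 1.29) and FKBP5, a co-chaperone of steroid receptors, of 0.89 (0.67 to 1.10). The drug and prostaglandin transporter gene ABCC4 had 0.81 (0.51 to 1.12). VAPA, with -0.41 (-0.91 to 0.09), was the lowest of the list. The KLK2 start used, the outermost annotated one, had too few read pairs to be tested (14 at 0 m), but the promoter guides of KLK2 lie at an inner start, which this count does not describe. Among 9 androgen-repressed genes 5 were tested, with BCHE called lower and HSD17B6, an enzyme of androgen metabolism, called higher at 1.02 (0.56 to 1.49). With equal totals HSD17B6 was at 0.73 and not called. Its strongest loop has an anchor that also overlaps the promoter of PRIM1, so the rise cannot be assigned to HSD17B6 alone. The median of the 5 was -0.05, or -0.34 with equal totals, and over all promoters 7.48% were called higher and 1.2% lower.

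Contact between the targeted elements and their promoters was higher at 16 h in 4 of these 5 loops beyond counting error. The loop from KLK3 element 2, which is the only H3K27ac loop of the KLK3 promoter, has been given above. UAP1 element 2 reached its promoter with 59.1, 41.6, 68.6, 132 and 85.0 (1.16, 0.93 to 1.40). FKBP5 element 1 and element 2, in the same bin, had a contact of 36.4, 91.4, 63.7, 87.5 and 58.2 over the time course (1.26, 0.97 to 1.56), the highest value being that at 30 m. The gene start used for FKBP5 is the outermost annotated one, and the promoter guides lie at an inner start. ABCC4 element 2 and element 3 together had 17 read pairs at 0 m and 67 at 16 h (1.51, 0.73 to 2.37), while ABCC4 element 1 had 6 and 19 (1.19, -0.19 to 2.81). The loops of KLK3, UAP1 and FKBP5 are 5 kb long with a contact over 32, and all 5 kb loops of that class together changed by 1.14. The intervals of UAP1 and FKBP5 include this value, and that of KLK3 lies above it. H3K4me3 contact was above counting error at KLK3 element 2 (1.31, 0.77 to 1.88) and UAP1 element 2 (0.91, 0.60 to 1.22).

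Not every targeted element followed. All loops of UAP1 element 1 together had 27 read pairs at 0 m and 15 at 16 h (-1.32, -2.33 to -0.35), those of UAP1 element 4 had 45 and 51 (-0.29, -0.90 to 0.32) and those of UAP1 element 3 had 94 and 141 (0.12, -0.27 to 0.51). None of these 3 had a loop to the UAP1 promoter. In the kallikrein cluster, where KLK2 and KLK3 lie, all loops of element 1, element 3 and element 5 changed by 0.83 (0.56 to 1.11), 0.72 (0.55 to 0.89) and 0.73 (0.52 to 0.93). Their summed contact was highest at 4 h or 16 h, as for element 3 with 125, 145, 245, 205 and 89.7 in time order.

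**Figure D4:**
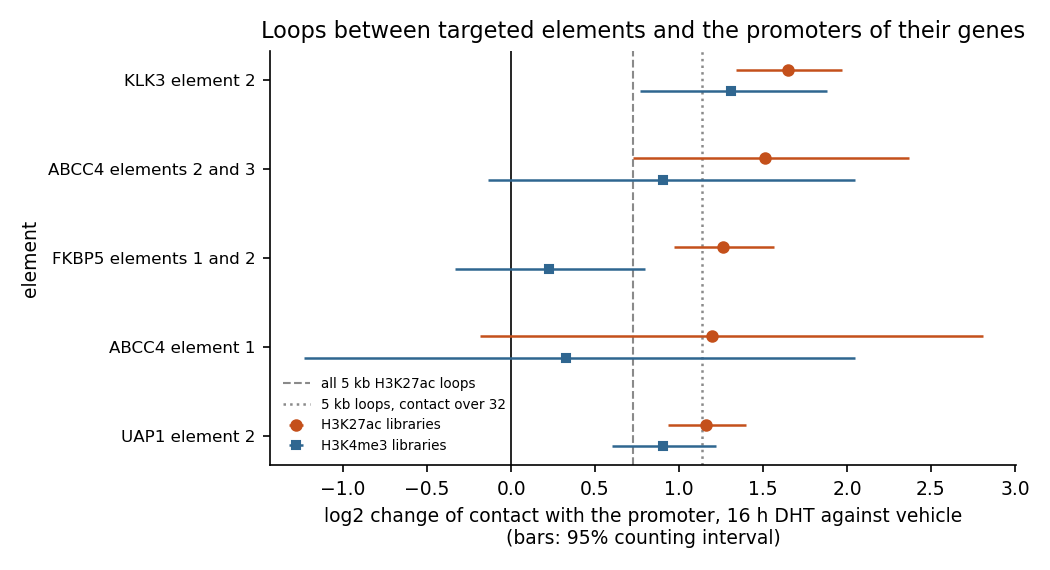
Log2 change of contact between targeted elements and the promoters of their genes, 16 h DHT against vehicle, in the H3K27ac (circles) and H3K4me3 (squares) libraries, with 95% counting intervals. The dashed line is the change of all 5 kb H3K27ac loops, 0.72, and the dotted line that of 5 kb loops with a contact over 32, 1.14. The H3K27ac interval lies above 0 at every element but ABCC4 element 1.

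Luminal prostate transcription factors and keratins had a median close to that of the androgen-induced list. Of 12 tested, 2 were called higher and 0 lower, with a median of 0.60 and intervals above 0 at 11, beside 7.48% called higher and 3862 of 9854 intervals above 0 over all promoters. KRT8 and KRT18 share their loops and are 1 measurement counted as 2 members. In loops of at least 20 kb the median was 0.22. On the scale of equal totals the median was 0.31, CDH1 alone was called and 7 intervals lay above 0. The H3K4me3 median was 0.39. Relative to promoters of the same contact class the medians were 0.16 for androgen-induced genes and 0.10 for the luminal list. CDH1, the epithelial cadherin, had a contact of 117, 168, 116, 304.9 and 229 from 0 m to 72 h (1.38, 1.22 to 1.55). GATA2, a zinc finger factor, had 82.0, 130, 99.8, 193 and 172 (1.24, 1.04 to 1.44, and 0.95 with equal totals). FOXA1 stood at 0.77 (0.65 to 0.89) and HOXB13 at 0.64 (0.47 to 0.82), both under the threshold. Their 2 highest values among the time points were those at 16 h and 72 h.

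In sterol and fatty acid synthesis 1 of 24 tested promoters was called higher and 0 lower, with a median of 0.25, beside 7.48% and 1.2% of all tested promoters. With equal totals 1 was called higher and 2 lower, and the median was -0.05. INSIG2, which holds the sterol sensor in the endoplasmic reticulum, was the one called, with 30.3, 30.0, 29.5, 93.4 and 63.9 (1.63, 1.31 to 1.95), and at 0.58 in loops of at least 20 kb. Its paralogue INSIG1 lay on the other side, at -0.87 (-1.31 to -0.43), followed by LSS, lanosterol synthase, at -0.81 (-1.48 to -0.16). Of 18 secretory and unfolded protein response genes tested, KDELR2, a receptor that returns proteins to the endoplasmic reticulum, was called (1.55, 1.30 to 1.81), and the median was 0.34. With equal totals the median was 0.05, and KDELR2 was at 1.26 and still called. The KDELR2 loops of at least 20 kb changed by 1.36. The promoter anchor of its strongest loop also overlaps the promoter of DAGLB. XBP1, the factor of the unfolded protein response, stood just under the threshold at 0.999 (0.85 to 1.15).

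Polyamine genes had 2 of 8 called, ODC1, the first enzyme of the pathway (1.12, 0.87 to 1.38, and 0.41 in loops of at least 20 kb), and the oxidase gene PAOX (1.01, 0.42 to 1.63), with a median of 0.38. On the scale of equal totals neither was, and the median was 0.09. Insulin and IGF signalling had TSC1, a brake on mTOR, as the only one of 12 (1.59, 1.12 to 2.10), with a median of 0.41, or 0.12 with equal totals. The TSC1 loop with the most read pairs ends at the promoter of GFI1B. Steroid targets shared with the glucocorticoid receptor had DUSP1 as 1 of 7 (1.09, 0.85 to 1.33) and a median of 0.22. DUSP1 was at 0.42 in loops of at least 20 kb and at 0.80 with equal totals, not called in either, and the median was -0.07. In lists as small as these, 1 or 2 calls are to be read beside the 7.48% of all promoters.

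Cell cycle genes had CCND3 (1.12, 0.70 to 1.57) and CDK2 (1.01, 0.62 to 1.41) called of 19, with a median of 0.26. In loops of at least 20 kb they were at 0.35 and 0.17, and with equal totals at 0.83 and 0.72, neither called. The promoter anchor of the strongest CCND3 loop also overlaps the promoter of TAF8. Of 11 immediate early genes tested, 0 were called, and the median was 0.26. With equal totals the medians of both lists were -0.03. Ribosomal protein genes had 0 of 38 called and the lowest median of the larger lists, 0.14, with intervals above 0 at 12 and below it at 5. With equal totals the median was -0.16, 2 were called lower, and intervals lay above 0 at 3 and below it at 15. Over all promoters 7.48% were called higher, and as deposited 3862 of 9854 intervals lay above 0 and 739 below. RPS15 stood highest at 0.99 (0.81 to 1.18) and RPS16 lowest at -0.86 (-1.40 to -0.33).

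**Figure D5:**
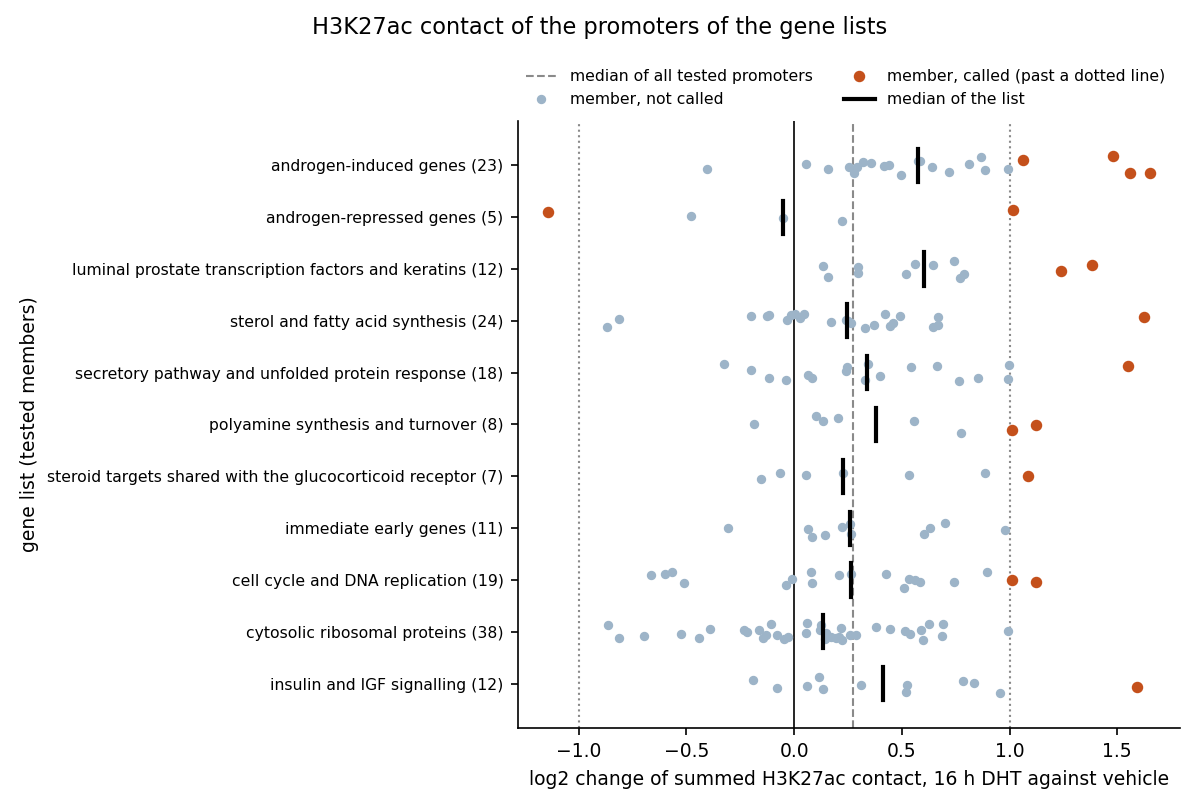
Log2 change of summed H3K27ac contact at the promoters of the gene lists, 16 h DHT against vehicle, with 1 point per tested member and a black bar for the median of the list. Dotted lines mark the 2-fold threshold and the dashed line the median of all tested promoters, 0.27. Among the lists drawn, which leave out the interferon-induced list added later, medians of the androgen-induced and luminal lists, 0.58 and 0.60, lie furthest to the right.

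H3K4me3 contact was compared at the same loops. Among the loops of the H3K27ac set tested in the H3K4me3 libraries, 2482 were called higher (5.3%) and 960 lower (2.05%). Of the loops tested in both marks, 4.52% were called higher and 1.34% lower in H3K4me3, with a median of 0.12. Of 5255 loops called higher in H3K27ac, 289 were called higher in H3K4me3 (5.50%) and the median change was 0.18. Of 1091 called lower, 28 were called lower in H3K4me3 (2.57%) and 37 higher (3.39%), and the median was 0.05. At promoters, 52 were called higher in H3K4me3 (0.499%) and 4 lower (0.0384%). Those called higher in H3K27ac included 7 of 670, and those called lower 0 of 98 in either direction. IFIT3 was the one named rise whose H3K4me3 interval lay above 0 (1.85, 0.28 to 3.85). Of the named falls, CDH26 (-0.97, -1.68 to -0.28) and IGFALS (-0.62, -0.90 to -0.34) had H3K4me3 intervals below 0.

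Distal anchors made up 37578 of the 46537 anchors tested by their summed contact. Of them, 4942 were called higher (13.2%) and 1121 lower (2.98%). Besides the loci near COX10, CHST15, IFIT3, DNAJC13 and ZC3HAV1 already described, the largest rises included an anchor between genes 44.05 kb from the start of PRR15, with 4 read pairs at 0 m and 98 at 16 h (4.15, 2.74 to 6.05). An anchor near KDM7A, a histone demethylase gene, followed with 9 and 129 (3.37, 2.40 to 4.53). One in an intron of USP22, which encodes a deubiquitinase of the SAGA complex, had 14.4, 48.0, 13.2, 102 and 68.7 over the time course (2.82, 2.39 to 3.28).

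Among the largest falls at distal anchors, an anchor 210 kb from BRINP3 had 51 read pairs at 0 m and 6 at 16 h (-3.56, -5.07 to -2.34). Near PCDH17, a protocadherin gene, the contact was 25.9, 5.398, 21.8, 3.82 and 2.11 in time order (-2.76, -3.58 to -2.02), high at 0 m and 4 h. An anchor between genes near RARB, a retinoic acid receptor gene, had 47.3, 11.2, 25, 9.77 and 6.84 in 23 loops (-2.28, -2.78 to -1.80). The anchor near GPAM at the end of the largest lost loop summed over 14 loops to 176 read pairs at 0 m and 52 at 16 h (-2.23, -2.70 to -1.77).

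Anchor sequence was compared over the 5 kb bin of each anchor. Of 46537 anchors tested, promoter and distal together, 5776 were called higher (12.4%) and 1236 lower (2.66%). Median GC content was 43.6% in anchors called higher, 40.9% in those called lower and 44.4% in tested anchors not called. The forkhead motif TGTTTAC, on either strand, was in 53.8% of all 143648 anchors. Among tested anchors it was in 54.5% of those called higher, 56.5% of those called lower and 52.8% of those not called. These groups mix promoter anchors, 44.7% of which had the motif, with distal ones. Among distal anchors alone the shares were 56.0% (exact binomial interval 54.6% to 57.4%), 57.5% (54.6% to 60.5%) and 54.9% (54.4% to 55.5%). These intervals overlap. Median GC content in the same distal groups was 43.0%, 40.2% and 43.1%. A match describes letters in the reference genome and does not show binding.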

How the data were processed

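Per the study's methods, the authors trimmed the reads with Trim Galore 0.5.0, aligned them to hg19 with HiC-Pro 3.1.0 at a mapping quality of at least 20, and called loops with FitHiChIP in 5 kb bins after merging the time points of each mark. The deposited values are contact signal per loop, scaled by TMM among the time points of a mark. Read pairs were recovered by dividing each value by the smallest non-zero value of its table.

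Log2 ratios of the deposited values at 16 h and 0 m were given exact conditional (Clopper-Pearson) 95% intervals. With 1 value per group no test between replicates was made. A promoter reaches 2500 bp to both sides of the outermost start that Gencode 44, lifted over to GRCh37, gives for each gene coding for protein. Mitochondrial and pseudoautosomal copies were left out, and 3 older symbols were replaced. Named loops are the 10 highest and 10 lowest by the interval bound nearest to 0 among loops of at least 50 read pairs, 1 per 100 kb. Named promoters are the 12 highest and 12 lowest by that bound, promoters that share most of their read pairs counted as 1 locus, and named distal anchors the 8 highest and 8 lowest. List members that were called or stood out in size are also named. Members and lists were chosen with earlier results of these data known. The motif was searched on both strands of GRCh37. There were 39 alternatives planned and 6 added after the data were seen, and they vary scaling, minimum, fold, pseudocount, length, promoter assignment and reference. Calls and intervals were tested on simulated data. Python 3.11.15, numpy 2.4.6, pandas 2.3.3, scipy 1.17.1, matplotlib 3.10.9 and pysam 0.24.0 were used. Some genes and sets are not reported here.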

Additional observations from a re-analysis of the deposited data

Results flagged for a closer look

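At 2 of the promoters with the largest rises and falls the H3K27ac and H3K4me3 libraries moved in opposite directions, each beyond counting error on the deposited scale. CAPNS1 changed by 2.05 (interval 1.87 to 2.24) in H3K27ac and by -0.18 (-0.34 to -0.01) in H3K4me3, where it had 529 read pairs at 0 m and 682 at 16 h. MANEA changed by -1.41 (-1.80 to -1.02) in H3K27ac and by 0.53 (0.12 to 0.96) in H3K4me3, with 72 and 152 read pairs. All loops together changed by 0.14 in H3K4me3, and against that shift the lower end of the MANEA interval (0.12) does not clear 0. ISG15, which is in the list of interferon-induced genes, also had opposite changes, 1.005 (0.80 to 1.21) in H3K27ac and -0.53 (-0.78 to -0.28) in H3K4me3. With 1 value per mark and time point, the difference between the marks was not tested.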

How the results depend on the processing

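No paired analysis was possible because a single value was deposited for each loop in a mark at each time. As deposited 10333 loops were called higher and 3200 lower, and 737 and 118 promoters. Equal totals gave 5834 and 6209 loops and 274 and 377 promoters, and moved the share of higher calls from 76.4% to 48.4% for loops and from 86.2% to 42.1% for promoters. Scaling by the median ratio of tested loops gave 5875 and 6142 loops. Changes taken relative to the same class of contact gave 5460 and 5193 loops and 321 and 228 promoters. The cause was not tested.

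By construction, other minimums and folds moved the counts. At least 10 read pairs gave 18663 and 13225 loops, and at least 50 gave 5149 and 254. A fold of 1.5 gave 19672 and 7946 loops and 2606 and 565 promoters, and a fold of 3 gave 3067 and 729 loops. Loops of at least 20 kb alone gave 4423 and 1701 calls and 289 promoters called higher, and loops longer than 5 kb, an alternative chosen after seeing the data, gave 5645 higher. At least 20 read pairs gave 344 promoters called lower and at least 100 gave 39. With a pseudocount of 1, or with the counting interval also on the side of the call (chosen after seeing the data), counts stayed within 1.5 times.

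The median over promoters was 0.27, and -0.0158 with equal totals, 0.22 from 20 and 0.32 from 100 read pairs, 0.25 with 5 kb bins, 0.18 from 20 kb and 0.00 relative to the same contact class. All loops together changed by 0.29, by 0.00 with equal totals by construction, 0.0061 with the median ratio, -0.0005 from 20 kb and 0.54 in loops of at least 20 read pairs. Of 12 list medians, 7 kept their sign with equal totals and 12 in loops of at least 20 kb. Of 41 named genes, 32 kept their call with equal totals. This count includes the 24 promoters named for the largest rises and falls. A shift of 0.29 could not undo the call of any of these 24, so only the other named genes could change. Of 27 named genes that could be compared in loops of at least 20 kb, 26 kept their direction and 16 their call, and UAP1 was at -0.0283. Depth limits single loops, with a median of 4 read pairs.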

Other observations

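Several of the largest rises were at genes known to be induced by interferon, so 37 such genes were listed after these values had been seen. Of them 35 had H3K27ac loops and 24 were tested. Contact was called higher at 10 and lower at 0, with 7.48% of all tested promoters called higher, and the median change was 0.80 beside 0.27 over all promoters. On the scale of equal totals 8 were called higher, beside 2.78% of all promoters, and the median was 0.51 beside -0.02. Relative to promoters of the same contact it was 0.50. Intervals lay above 0 at 19 and below it at 0, and with equal totals at 17 and 2. Over all 9854 promoters they lay above 0 at 3862 and below it at 739, and with equal totals at 2057 and 1959. Because the list was chosen for such values, its counts are a description only. In the H3K4me3 libraries the median over 20 of these promoters was 0.08.

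Besides IFIT3, OASL and ISG20, the called promoters were IFIT1, IFIT5, OAS1, ISG15, SAMHD1, UBA7 and ZC3HAV1. With equal totals ISG15 and UBA7 were no longer called. IFIT1 had a summed contact of 18.2, 23.4, 15.6, 61.8 and 66.0 from 0 m to 72 h (change at 16 h 1.76, interval 1.36 to 2.18). IFIT5, its neighbour, had 11.2, 19.4, 11.8, 45.6 and 53.2 (2.03, 1.53 to 2.57). OAS1, which senses double-stranded RNA, had 8.52, 11.9, 7.05, 33.1 and 39.7 from 0 m to 72 h (1.96, 1.38 to 2.58). In these 3 the 4 h value was close to that of vehicle and the values at 16 h and 72 h were the high ones. ISG15 and UBA7 differed. ISG15 had 81.7, 180, 92.9, 164 and 183, with the 30 m value above that at 16 h, and UBA7 had 4.41, 14.0, 12.2, 10.4 and 9.21, highest at 30 m. In loops of at least 20 kb the changes were 1.83 at OAS1, 1.66 at IFIT1 and 1.84 at IFIT5. There, ISG15 was at 0.22 (-0.12 to 0.57), SAMHD1 at 0.60 (-0.06 to 1.29) and IFIT3 at 1.005 (-0.14 to 2.29), and these 3 intervals include 0.

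Genes of the signalling arm were less changed. IRF1 stood at 0.89 (0.42 to 1.38) and STAT2 at 0.61 (0.35 to 0.88). IRF9 was at -0.28 (-0.61 to 0.05), within counting error of 0. ADAR was the lowest at -0.44 (-0.997 to 0.11).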
